A study of Mus musculus with 6 samples.

Results

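The genes described are those for the proteins of the cytosolic ribosome, in RNA from mouse retinal pigment epithelium (RPE) collected at a pair of circadian times. They were chosen by symbol alone: every listed gene whose name begins with Rpl or Rps and continues with a number, with or without a paralog letter, together with Rplp0, Rplp1, Rplp2 and Rpsa. The rule found 52 genes among 14008 named entries, 23 for the small and 29 for the large subunit. The annotation calls 50 of them protein coding and the other 2, Rps4l and Rpl32l, pseudogenes. It holds 83 protein-coding symbols that meet the rule, so 33 genes, Rpsa among them, were not analysed here. All mice were C57BL/6J males (a widely used inbred strain) of 8 to 10 weeks, and the labels give no other allele and no agent. Group CT23 had 3 libraries and group CT1 had 3, and the times are 2 h apart. A library was a pool of 2 RPE samples, prepared from total RNA by a QuantSeq kit, which reads the 3′ ends of polyadenylated transcripts. The tissue was what remained of the eye after its front and the neural retina had been taken off, shaken by brief sonication, so the preparation was enriched for RPE and not sorted. The labels do not say whether pools came from separate animals, so p-values measure only the spread between these libraries.

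A ribosome is built from ribosomal RNA, made mostly by RNA polymerase I, and from a fixed set of proteins that are needed in equal numbers, apart from the acidic P proteins, which the stalk of the large subunit holds in several copies. The mRNAs of vertebrate ribosomal proteins begin with a C and a run of pyrimidines, the 5′ terminal oligopyrimidine (TOP) tract, through which mTORC1 and the RNA-binding protein LARP1 set their translation together. In mouse liver the translation of these mRNAs follows a daily rhythm, and in the eye the RPE carries out its daily uptake of shed photoreceptor tips around light onset. Mammalian genomes also hold many processed pseudogenes of ribosomal protein genes, intronless copies made by reverse transcription of the mRNA.

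The tract could be read at the annotated start of some of these genes. Windows of 20 bases on each side of the annotated start are printed for 6 of the genes, from the RefSeq promoter table of build GRCm38.p6 (the same assembly as mm10), with the pyrimidine tract that opens the transcript in capitals. They were picked as the clearest examples of a C at the first transcribed base.
Rpl14, chr9:120571497-120571536, plus strand: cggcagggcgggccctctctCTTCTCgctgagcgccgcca
Rpl15, chr14:18270967-18271006, minus strand: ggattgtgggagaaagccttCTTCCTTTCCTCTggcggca
Rps10, chr17:27635225-27635264, minus strand: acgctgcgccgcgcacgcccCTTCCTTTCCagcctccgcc
Rps15a, chr7:118116128-118116167, minus strand: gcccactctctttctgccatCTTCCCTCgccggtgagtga
Rps18, chr17:33955646-33955685, minus strand: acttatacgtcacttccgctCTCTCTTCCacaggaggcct
Rpl32l, chr10:20208419-20208458, plus strand: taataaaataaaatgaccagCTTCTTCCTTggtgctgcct
The tract ran for 13 bases in Rpl15, 10 in Rps10 and Rpl32l and 6 in Rpl14. Rpl32l is the pseudogene of this set, and its window also opens with a tract. Of the 52 genes, 38 matched the promoter table. A C at the start followed by at least 4 pyrimidines, read on the gene's own strand, was found in 8 of the 38 genes (21.1%) and in 3.01% of all 27025 genes of the table. At the start, or within 5 bases of it where no pyrimidine came just before, it was found in 15 (39.5%) and in 15.6% of all genes. Over windows from 250 bases before to 50 after the start, searched on both strands, CCGGAAG, letters that ETS family factors bind, was in 14 of the 38 genes (36.8%) against 9.93% of all genes. The E-box CACGTG, bound by CLOCK and BMAL1 and by MYC, was in 4 genes (10.5%) against 8.09%, AAGATGGC was in 4 genes (10.5%) against 3.19%, and TATAAA was in 4 genes (10.5%) against 15.7%. None of these motifs contains another, and a match describes the letters of the window only.

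Values were deposited as CPM, a gene's reads divided by its library's total and multiplied by a fixed factor, and whole read numbers could be recovered from them. Library totals lay between 12612330 and 13651486 reads, of which the listed genes took 12.7% to 32.3%. A count of 0 allows up to 3 reads, or 0.220 to 0.238 CPM, and such limits cover counting error only. Crystallins, the lens proteins, took 197580 and 179675 CPM in CT23 replicates 1 and 2 and between 2329 and 23359 CPM in the other 4 libraries, so these 2 libraries stood apart. The RPE's own markers were all present (10 of 10 listed, among them the retinoid isomerase gene Rpe65 at 73.2 to 127 CPM), with summed levels of 841 to 1106 CPM at CT23 and 1047 to 1470 CPM at CT1. Other tissue was present too: 8 rod markers summed to 812 to 983 CPM at CT23 and 562 to 601 CPM at CT1, and 6 markers of fibroblasts and sclera to 729 to 884 CPM and 968 to 1827 CPM.

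The ribosomal protein genes were at low levels in this table. Because a 3′ end kit gives about a read for each transcript, whatever its length, CPM values of different genes were set side by side without a length correction. The 52 genes together held 3881 to 5217 reads per library. Their share of the listed reads was 0.0881% and 0.0995% in CT23 replicates 1 and 2, the libraries with most crystallin reads, and 0.216% to 0.273% in the others. Over the 6 libraries the mean level of a gene ranged from 0.125 CPM for Rpl36 to 46.7 CPM for Rplp1, with a median of 2.26 CPM. Means of at least 5 CPM were found for 15 genes, means from 1 to 5 CPM for 24, and means under 1 CPM for 13. The 6 highest, Rplp1, Rps9, Rpl4, Rpl8, Rps3 and Rpl22, carried 52.8% of the summed level. The highest mean was 373 times the lowest.

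Setting CT1 against CT23 asks how RPE transcripts differ between these circadian times. Values by library follow the order of replicates 1, 2 and 3 throughout. The summed level of the 52 genes came to 284, 305 and 326 CPM at CT23 against 346, 313 and 386 CPM at CT1. The groups overlapped, since CT1 replicate 2 lay below CT23 replicate 3. The CT23 mean was 305 ± 21.0 CPM and the CT1 mean 349 ± 36.6 CPM (SD, n = 3 each), a log2 ratio of 0.19. That ratio was -0.0016 with crystallin reads left out of the library totals, 0.11 when CT1 replicate 3 was dropped, and 0.095 when CT23 replicates 1 and 2 were dropped. The small subunit genes summed to 117 ± 6.49 and 133 ± 8.66 CPM (log2 ratio 0.18) and the large subunit genes to 188 ± 14.7 and 215 ± 28.0 CPM (log2 ratio 0.20). In pooled tissue, fewer cells of a type and less RNA per cell cannot be told apart. The order of the libraries by the ribosomal sum was close to their order by 5 surface epithelium markers, keratin genes and the corneal enzyme gene Aldh3a1. Those markers, all 5 of them detected, summed to 500, 850 and 1248 CPM at CT23 against 1632, 964 and 1515 CPM at CT1. The lowest 4 libraries stood in the same order in both sums, and the highest 2 changed places. Of the marker lists read, this one came closest in order, over only 6 libraries. Markers of fibroblasts and sclera were also lowest in CT23 replicate 1 (729 CPM) and highest in CT1 replicate 3 (1827 CPM). Rod markers were instead highest in CT23 replicate 1 (983 CPM) and lowest in CT1 replicate 3 (562 CPM). Krt12, a keratin of the corneal epithelium, ranged from 49.1 CPM in CT23 replicate 1 to 431 CPM in CT1 replicate 1. The part of these markers in the ribosomal values was not tested.

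**Figure D1:**
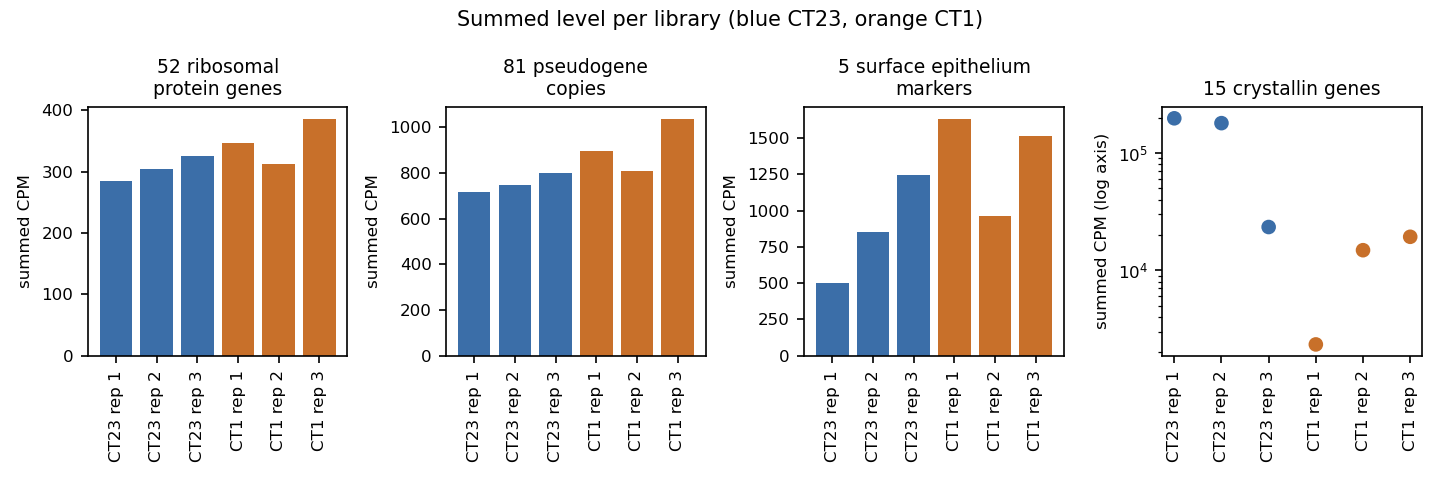
Summed CPM (y axis) of the 52 ribosomal protein genes, of 81 pseudogene copies of such genes, of 5 surface epithelium markers and, on a log axis, of 15 crystallin genes in each of the 6 libraries (x axis; blue CT23, orange CT1; 1 bar or point per library). The ribosomal sums run from 284 to 386 CPM with overlapping groups, and the crystallins stand highest in CT23 replicates 1 and 2.

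No ribosomal protein gene passed limma's test. Of the 52, 39 had a mean of at least 1 CPM and were tested, and 0 of them had an adjusted p under 0.05, as did 0 of all 11342 genes tested (0%). The smallest adjusted p was 0.101 among the 39 and 0.0736 among all genes. At an unadjusted limma p under 0.05 there were 9 of the 39 (23.1%), against 21.8% of all genes, so the total lay near the background. By direction, 7 were higher at CT1 (17.9%, against 9.39% of all genes) and 2 were lower (5.13%, against 12.4%). With crystallin reads taken out of the library totals, a scaling that lowered the all-gene median log2 fold from -0.014 to -0.17, that split turned to 1 higher and 7 lower. On the recovered reads, edgeR's quasi-likelihood test and DESeq2 also gave 0 calls among these genes at an adjusted p under 0.05, with 10 and 8 at an unadjusted p under 0.05. DESeq2 gave an adjusted p to only 15 of the 39, and it called 138 genes over the whole table.

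The fitted log2 folds, CT1 minus CT23 on the log2(CPM + 1) scale, which understates the change of low genes, ranged from -0.54 to 0.58 over the 39 genes. Their median was 0.14, against -0.014 over all genes tested, and 25 of the 39 (64.1%) were above 0, against 47.8% of all genes. The median was 0.13 for the 17 small subunit genes, of which 13 were above 0, and 0.14 for the 22 large subunit genes, of which 12 were above 0. With no filter on low values, 34 of 52 were above 0 and the median was again 0.14. It was 0.025 without CT23 replicates 1 and 2, and -0.037 once crystallin reads were left out of the library totals, the same scaling that lowered the median of all genes. All 3 CT1 libraries lay above all 3 CT23 libraries for 8 of the 39 genes (20.5%), against 11.3% of all genes. They lay below for 4 (10.3%), against 16.3%. Those 4 were Rpl31, Rpl6, Rps15a and Rpl32l.

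**Figure D2:**
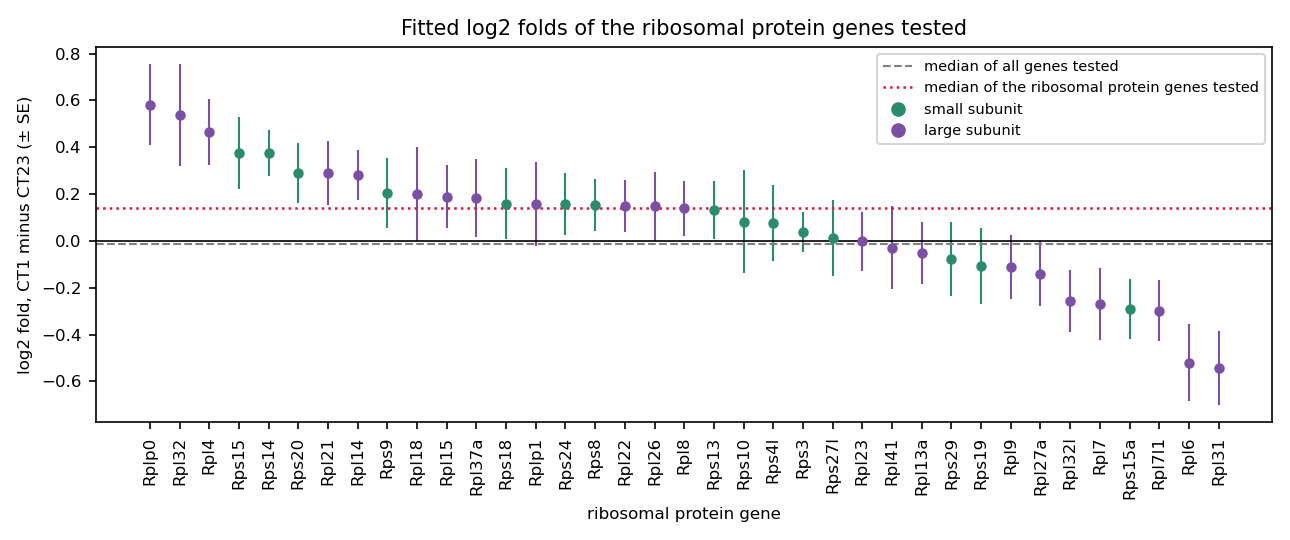
Fitted log2 fold (y axis, CT1 minus CT23, point ± SE, n = 3 each) for 37 of the 39 ribosomal protein genes tested, ordered by fold (x axis) and coloured by subunit. Folds run from 0.58 for Rplp0 to -0.54 for Rpl31, with 24 of those shown above 0 and genes of both subunits at either end.

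The stalk genes differed from each other in level and in their spread. Rplp1, an acidic P protein gene (chr9:61913284-61914542, minus strand), was the highest of the set, at 36.3, 42.7 and 53.3 CPM (CT23) and 52.2, 39.0 and 56.7 CPM (CT1). Its groups overlapped (log2 fold 0.16, SE 0.179, limma adjusted p = 0.637), and without CT23 replicates 1 and 2 its fold was -0.13. Rplp0, which anchors the P proteins to the large subunit (chr5:115559467-115563727, plus strand), was at 3.96, 5.92 and 5.87 CPM at CT23 against 7.71, 7.14 and 10.1 CPM at CT1. Every CT1 library lay above every CT23 library, with a log2 fold of 0.58 (SE 0.174), the largest of the 39, and it did not pass (limma adjusted p = 0.123). It was the only gene of the set to pass under any alternative scaling: scaled to the sum of the listed genes, which raised the all-gene median to 0.59, its fold was 1.25. Rplp2, the other acidic P protein gene, held 1, 2 and 3 reads at CT23 and 1, 1 and 3 reads at CT1, all at or under the 3 reads that a count of 0 allows.

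Among the other large subunit genes, the highest was Rpl4 (chr9:64173375-64178666, plus strand), whose protein lines the exit tunnel for the nascent chain. It was at 24.3, 22.97 and 25.2 CPM at CT23 against 32.3, 28.3 and 41.9 CPM at CT1. Its groups did not overlap, and its log2 fold was 0.47 (SE 0.142, limma adjusted p = 0.128). Rpl8 (chr15:76904078-76906314, plus strand), whose protein sits near the peptidyl transferase centre, was at 21.0, 22.7 and 24.9 CPM at CT23 against 25.3, 22.2 and 28.5 CPM at CT1. The groups overlapped (log2 fold 0.14, SE 0.117). Rpl22 (chr4:152325742-152334071, plus strand), which is not needed for overall protein synthesis in mice, was at 17.5, 17.8 and 19.4 CPM at CT23 against 20.1, 17.9 and 23.2 CPM at CT1, also overlapping (log2 fold 0.15, SE 0.112). Rpl14 (chr9:120571444-120574654, plus strand), the gene with the start site shown first above, was at 15.6, 17.8 and 18.4 CPM at CT23 against 20.8, 19.4 and 23.3 CPM at CT1. Its CT1 values all lay above its CT23 values, with a log2 fold of 0.28 (SE 0.107, limma adjusted p = 0.186).

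Among genes with negative folds, the 5 of smallest p all had means below 5 CPM. Rpl31 (chr1:39367842-39371911, plus strand), a protein near the exit of the tunnel, was at 1.17, 1.77 and 1.54 CPM at CT23 against 0.755, 0.951 and 0.444 CPM at CT1. These values stand for 16, 23 and 21 reads against 10, 12 and 6 reads. The groups did not overlap (log2 fold -0.54, SE 0.158, limma adjusted p = 0.121). Rpl6 (chr5:121204481-121209241, plus strand), a large subunit protein, was at 3.003, 2.30 and 1.76 CPM at CT23 against 1.06, 1.43 and 1.48 CPM at CT1, again without overlap (log2 fold -0.52, SE 0.166, limma adjusted p = 0.138). Rps15a (chr7:118104372-118116188, minus strand), a small subunit protein, was at 3.08, 2.38 and 2.35 CPM at CT23 against 1.96, 2.06 and 1.78 CPM at CT1. It too was without overlap (log2 fold -0.29, SE 0.130, limma adjusted p = 0.239). Rpl31 lies across Tbc1d8 on the opposite strand, and the sources used here do not give whether the authors' counting used the strand.

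The highest small subunit genes were Rps9 and Rps3. Rps9 (chr7:3703993-3706897, plus strand), one of the first proteins to join the assembling small subunit, was at 24.4, 27.6 and 33.7 CPM at CT23 against 35.4, 27.6 and 36.1 CPM at CT1. Its groups overlapped (log2 fold 0.21, SE 0.149). Rps3 (chr7:99477896-99483738, minus strand), which lies at the mRNA entry of the ribosome and also acts in DNA repair, was the steadiest of the 6 highest genes. It was at 21.2, 23.2 and 21.7 CPM at CT23 against 22.1, 23.5 and 22.4 CPM at CT1, with a log2 fold of 0.039 (SE 0.0859). Rps14 (chromosome 18, plus strand), the small subunit gene lost in the human 5q- syndrome, was at 9.08, 9.53 and 9.39 CPM at CT23 against 11.9, 11.7 and 13.7 CPM at CT1. All of its CT1 values lay above its CT23 values. Its log2 fold was 0.38 (SE 0.0968), with the smallest adjusted p of the set (limma adjusted p = 0.101), and its span overlaps Ndst1 on the opposite strand. With the CPM of its pseudogene copies added, a setting described below, the log2 fold of Rps14 was 0.22 (SE 0.126).

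**Figure D3:**
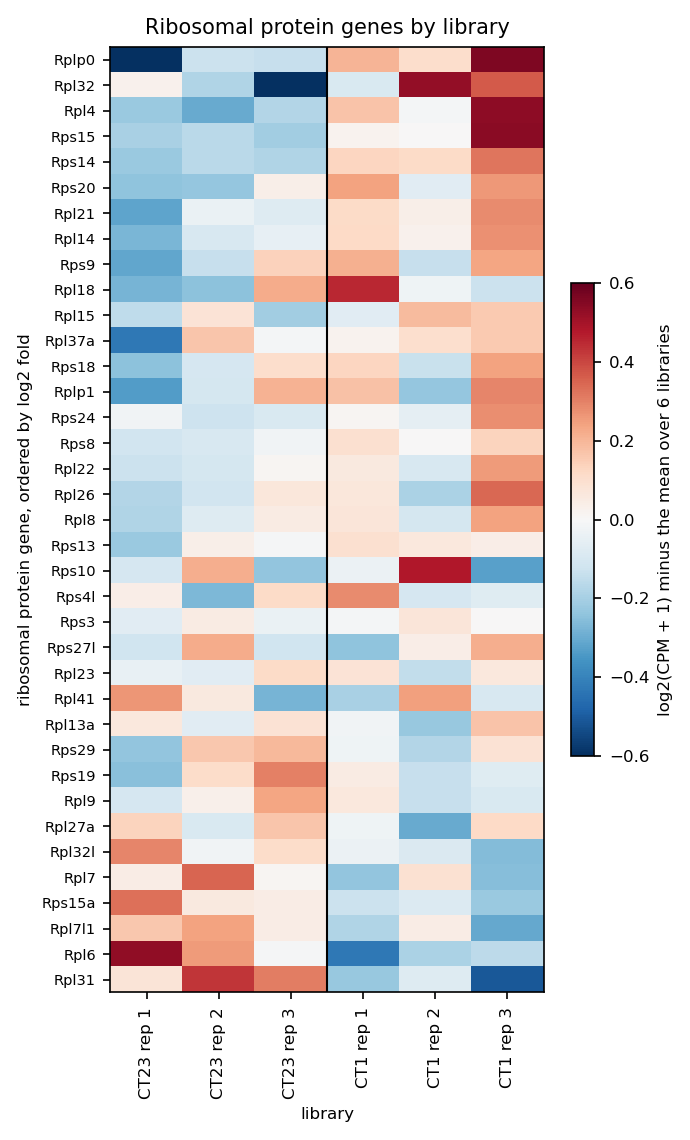
Log2(CPM + 1) of 37 of the 39 ribosomal protein genes tested (rows, ordered by log2 fold) in each library (columns), as the difference from the gene's mean over 6 libraries (colour, red above and blue below). CT1 replicate 3 is red for most genes in the upper rows, and Rpl31, Rpl6 and Rps15a in the lowest rows are blue in all 3 CT1 libraries.

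The paralogs and pseudogenes of the set had means under 5 CPM. Rps27l, a paralog of Rps27 that p53 induces, was at 3.30, 4.46 and 3.30 CPM at CT23 against 2.95, 3.81 and 4.44 CPM at CT1, with overlapping groups (log2 fold 0.011, SE 0.161). Rpl7l1, a relative of Rpl7 with a role in making the large subunit, was at 4.395, 4.69 and 3.96 CPM at CT23 against 3.25, 3.96 and 2.89 CPM at CT1. Its groups overlapped by a narrow margin, at CT23 replicate 3 and CT1 replicate 2 (log2 fold -0.30, SE 0.131, limma adjusted p = 0.235). The pseudogene Rpl32l (chr10:20208490-20208888, plus strand) lies within Map7 on the same strand, so reads could belong to either. It was at 3.30, 2.46 and 2.79 CPM at CT23 against 2.42, 2.30 and 1.93 CPM at CT1, without overlap (log2 fold -0.26, SE 0.134). The pseudogene Rps4l (chr6:148354656-148355598, plus strand), which lies across Tmtc1 on the opposite strand, was at 1.76, 1.23 and 1.91 CPM at CT23 against 2.27, 1.51 and 1.55 CPM at CT1 (log2 fold 0.076, SE 0.162). Rpl3l, the paralog that takes the place of Rpl3 in striated muscle, held 1, 2 and 0 reads at CT23 and 1, 7 and 6 reads at CT1. The libraries with 7 and 6 reads, CT1 replicates 2 and 3, were also those with the highest sum of 7 skeletal muscle markers. That sum was 31.0, 28.7 and 7.48 CPM at CT23 and 32.6, 136 and 96.0 CPM at CT1, with the fast muscle myosin gene Myh4 among the 7 detected. The part of muscle RNA in the Rpl3l reads was not tested.

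The other genes under 1 CPM lay below the filter and are given by their levels. Rps23 had a mean of 0.888 CPM, Rps21 of 0.881, Rpl10a of 0.841, Rpl5 of 0.765, Rps26 of 0.670, Rpl37 of 0.640 and Rpl12 of 0.512 CPM. Rps4x, the X-linked form of Rps4, had a mean of 0.501 CPM, Rps2 of 0.463 and Rpl36 of 0.125 CPM. Rpl5, which with Rpl11 holds MDM2 in check when ribosome assembly fails, ranged from 0.293 to 0.733 CPM at CT23 and from 0.634 to 1.41 CPM at CT1, with overlap. Rpl10a was the exception, at 0.733, 0.538 and 0.733 CPM at CT23 against 1.06, 0.872 and 1.11 CPM at CT1, with every CT1 value above every CT23 value. The authors' deposited table gave Rpl10a a p of 0.00217 and gave a p under 0.05 to 5 of the 52 genes (9.62%), 3 higher and 2 lower at CT1. The authors' deposited table did so for 1759 of all named entries (12.6%), 640 higher and 1119 lower.

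Processed pseudogenes of ribosomal protein genes were also listed, and together they held more reads than the genes. Coding sequences of the 83 protein-coding symbols were aligned to the annotated transcripts, and a pseudogene with at least 95% identity over at least 50% of the coding sequence was taken as a copy. The table held 81 such copies, of 58 genes. Of these, 51 were copies of 34 genes of the set and 30 were copies of 24 genes not analysed here. The 81 copies summed to 718, 750 and 800 CPM at CT23 against 898, 810 and 1038 CPM at CT1, where every library lay above those of CT23. These sums were not recomputed with crystallin reads left out of the library totals. For the 52 genes that setting took the log2 ratio from 0.19 to -0.0016. The sum of all 81 was 2.45 to 2.69 times the sum of the 52 genes, depending on the library, although 30 of the copies are of genes outside the 52. The 51 copies of genes of the set summed to 509, 545 and 583 CPM at CT23 against 660, 594 and 772 CPM at CT1. Copies that overlap no other annotated gene also numbered 51 of the 81, though not the same 51. They held 494 to 572 CPM at CT23 and 551 to 746 CPM at CT1.

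For 26 of the 34 genes with a listed copy, the copies stood above the gene itself, and for 13 of them by more than 10 times. The ratio of copies to gene had a median of 4.89 and ran from 0.0439 for Rpl4 to 106 for Rpl37. The widest gap was between Rpl37, a zinc-binding protein of the large subunit, with a mean of 0.640 CPM, and Rpl37rt. Rpl37rt (chr5:115102923-115110268, minus strand) was at 57.1, 61.8 and 64.6 CPM at CT23 against 70.9, 64.8 and 87.9 CPM at CT1, every library at least 57.1 CPM. The pairs of Rpl23, Rpl14 and Rpl31, chosen like this one after their values were seen, show how alike gene and copy are. Each stretch below is 60 bases of coding sequence on the transcript strand from GENCODE M21, build mm10, with the bases that differ in capitals and the span of the whole gene beside it.
Rpl37, chr15:5116645-5119140, plus strand: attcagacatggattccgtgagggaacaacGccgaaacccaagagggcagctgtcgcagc
Rpl37rt, chr5:115102923-115110268, minus strand: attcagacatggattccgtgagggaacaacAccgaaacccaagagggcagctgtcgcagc
Rpl23, chr11:97777527-97782437, minus strand: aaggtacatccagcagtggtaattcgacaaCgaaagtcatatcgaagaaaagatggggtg
Gm9794, chr6:66875321-66875743, minus strand: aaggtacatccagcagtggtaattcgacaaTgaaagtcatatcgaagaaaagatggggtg
Rpl14, chr9:120571444-120574654, plus strand: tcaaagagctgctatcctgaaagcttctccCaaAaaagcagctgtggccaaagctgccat
Rpl14-ps1, chr7:45324965-45325617, plus strand: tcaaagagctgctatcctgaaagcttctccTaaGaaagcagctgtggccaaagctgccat
Rpl31, chr1:39367842-39371911, plus strand: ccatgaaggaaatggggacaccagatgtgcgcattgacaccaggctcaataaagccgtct
Rpl31-ps8, chr15:90764279-90764656, minus strand: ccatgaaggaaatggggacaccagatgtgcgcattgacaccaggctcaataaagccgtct
Over the whole coding sequence, Rpl37 and Rpl37rt differed at 1 of 291 bases and Rpl23 and Gm9794 at 1 of 420. Rpl14 and Rpl14-ps1 differed at 7 of 651 aligned bases, 3 of them gaps, and Rpl31 and Rpl31-ps8 at 0 of 375. This likeness is of coding sequence, whereas the kit reads 3′ ends. For these 4 genes, 0 other annotated transcripts matched the last 100 bases of the transcript (at least 95% identity over at least 80 bases). The annotated copies Gm9794, Rpl14-ps1 and Rpl31-ps8 span little more than the coding sequence. For them the search could not show whether 3′ ends beyond it are alike. Likeness outside annotated transcripts was not searched. Whether the reads came from gene or copy was not tested, and the sources used here do not give how the authors treated reads with several places of origin.

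**Figure D4:**
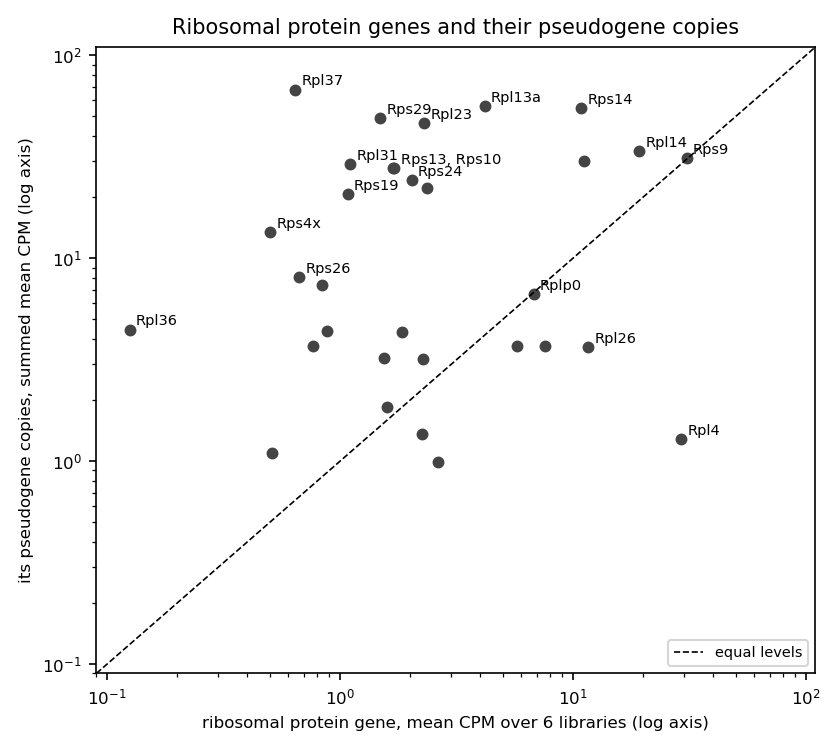
Mean CPM over 6 libraries of each of 32 ribosomal protein genes (x axis, log scale) against the summed mean CPM of its listed pseudogene copies (y axis, log scale), with a dashed line at equal levels. Points above the line, 25 of 32, are genes whose copies hold more reads than the gene, with Rpl37 at the greatest ratio, 106, and Rpl4 at the least, 0.0439.

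The copies were compared between the times in the same fit, and not with crystallin reads left out of the library totals. Of the 81, 73 were tested and 0 passed. Their median log2 fold was 0.22, with 58 above 0, and at an unadjusted limma p under 0.05 there were 17 higher (against 9.39% of all genes) and 1 lower (against 12.4%). All CT1 libraries lay above all CT23 libraries for 19 of the 73 (26.0%, against 11.3% of all genes) and below for 0 (against 16.3%). Gm9794, the copy of Rpl23, a large subunit protein, was at 28.8, 41.3 and 42.5 CPM at CT23 against 54.6, 48.9 and 63.2 CPM at CT1, without overlap (log2 fold 0.57, limma adjusted p = 0.121). Rpl23 itself averaged 2.30 ± 0.228 CPM (CT23) and 2.31 ± 0.282 CPM (CT1; SD, n = 3 each), and its log2 fold was -0.00087. Gm11478, the copy of Rpl13a, was at 46.4 ± 4.57 and 65.7 ± 11.5 CPM (log2 fold 0.48) and lies within Vmp1 on the same strand. Rpl31-ps8 was at 22.7, 23.4 and 28.5 CPM at CT23 against 28.9, 22.3 and 37.2 CPM at CT1, with overlap (log2 fold 0.21, SE 0.180), while the gene of identical coding sequence, Rpl31, had a log2 fold of -0.54.

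Adding each copy's CPM to its gene, a setting chosen after seeing the data, turned the direction of 3 of the named genes with negative folds. Over all tested genes of the set, 14 of 39 folds were below 0 as reported and 8 of 48 with copies added. The 48 include genes that passed the filter of 1 CPM only through their copies, so these counts are not of the same genes. Rpl31 went from -0.54 to 0.18, Rpl6 from -0.52 to 0.14 and Rps15a from -0.29 to 0.10. In each of these 3 genes the copies outweighed the gene in mean CPM. The means were 29.2 against 1.10 CPM for Rpl31, 4.33 against 1.84 for Rpl6 and 3.19 against 2.27 for Rps15a. Such summed folds reflect the copies more than the gene, and copies stood above the gene for 26 of 34 genes. The copies of Rpl6 had been at 3.15, 3.53 and 3.67 CPM at CT23 against 4.99, 4.52 and 6.15 CPM at CT1, with every CT1 value above every CT23 value, where the gene had every CT1 value below. With copies added, 48 genes reached a mean of 1 CPM, 40 of them had folds above 0, the median log2 fold was 0.19 and 13 had an unadjusted limma p under 0.05, all higher, with 0 past the adjusted threshold. In that fit 47.7% of all genes had folds above 0, against 83.3% of the 48, and 9.37% were higher at an unadjusted p under 0.05, against 27.1%. The summed level of genes with their copies gave a log2 ratio of 0.27, which was not recomputed with crystallin reads left out. Among the 10 tested genes with at most 1 pseudogene copy in the annotation, 8 had folds above 0 and the median was 0.14. These include Rpl23, Rpl14 and Rps9, whose copies stood at 20.2, 1.75 and 1.02 times the gene. A low number of copies therefore does not mark genes with few reads in copies.

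Levels were also set beside the number of annotated pseudogene copies of the coding sequence. The 4 protein-coding genes of the set with 0 copies had a median mean level of 7.81 CPM, the 25 with 1 to 4 copies one of 3.91 CPM, and the 21 with 5 or more one of 1.49 CPM. Across these 50 genes Spearman's rho between level and copies was -0.36, a description over genes that share libraries. Split by copies of the last 100 bases instead, the medians were 2.27 CPM for 39 genes with none and 1.71 CPM for 11 with 1 or more, and the latter held the highest gene, Rplp1. Only annotated transcripts were searched for these ends. Copies annotated over little more than the coding sequence, such as Rpl31-ps8, could hardly match there. The split therefore cannot sort genes by the likeness of their 3′ ends. Rpl21 had the most copies of coding sequence, 57, and a mean of 1.55 CPM. The 33 genes of the rule that were not analysed here had a median of 7 copies, and the 50 in the table a median of 3.

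Genes of ribosome production and of translation were read from lists beside the set, and 0 of their members passed the adjusted threshold. RNA polymerase I and its factors had a median log2 fold of 0.12 over 9 genes, with 0 at an unadjusted p under 0.05. Polr1a, the largest subunit of the enzyme, averaged 7.57 ± 0.398 CPM (CT23) and 8.86 ± 0.818 CPM (CT1; SD, n = 3 each). Genes of rRNA processing and subunit assembly had a median of -0.049 over 32 genes, with 1 higher and 1 lower at an unadjusted p under 0.05. Those were Utp4, a small subunit assembly factor (log2 fold 0.33), and Lyar (-0.34), a nucleolar protein. Gnl3, which encodes nucleostemin, was at 6.30 ± 0.0748 and 5.34 ± 0.200 CPM, without overlap (log2 fold -0.20).

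Initiation factors had a median log2 fold of 0.072 over 26 genes, with 1 higher and 2 lower at an unadjusted p under 0.05. Eif4b, a cofactor of the helicase that unwinds mRNA leaders and a target of S6 kinase, was at 9.16, 7.22 and 7.63 CPM at CT23 against 4.76, 4.68 and 4.59 CPM at CT1. The groups were far apart for it (log2 fold -0.66, SE 0.113), and its adjusted p of 0.0736 by limma equalled the smallest of all genes tested. Eif2s1, the alpha subunit of the factor that delivers the initiator tRNA, had a log2 fold of -0.36, and Eif3d, a cap-binding subunit, of 0.39. Elongation factors had a median of 0.10 over 8 genes, with 0 higher and 1 lower: Eif5a, which helps the ribosome through prolines, at a log2 fold of -0.33. Other mRNAs with a TOP tract had a median of 0.020 over 17 genes (range -0.77 to 0.45), with 2 higher and 3 lower. The lists can share genes: the highest fold of this one, 0.45, is that of the elongation factor gene Eef1b2. Rack1, a protein of the small subunit that the name rule leaves out, was at 11.8, 16.1 and 14.3 CPM at CT23 against 17.4, 18.9 and 18.1 CPM at CT1, without overlap (log2 fold 0.35). Btf3, a subunit of the nascent chain complex, had a log2 fold of 0.42 and the histone chaperone gene Nap1l1 of -0.31.

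Regulators of TOP mRNAs and of mTORC1 had a median log2 fold of -0.082 over 20 genes, with 1 higher and 1 lower at an unadjusted p under 0.05. The lower was Ddit4, which encodes the mTORC1 inhibitor REDD1, at 23.95, 23.6 and 20.97 CPM at CT23 against 15.3, 17.998 and 12.96 CPM at CT1. Its groups did not overlap (log2 fold -0.55, SE 0.127, limma adjusted p = 0.0851). The higher was the kinase gene Rps6ka1 (0.45), and Tial1, whose protein binds TOP mRNAs, had a log2 fold of -0.22. Surveillance genes, which respond to stalled or faulty ribosomes, had a median of 0.084 over 11 genes with 0 at an unadjusted p under 0.05, with Nemf, a factor of stalled large subunits, at 0.18 and Cdkn1a, a p53 target, at 0.48. A list of 5 further genes outside the name rule, for ribosomal proteins fused to ubiquitin and others, did not include Rack1. Of those 5, Rps27rt alone was in the table (log2 fold 0.13). Mitochondrial ribosomal proteins, a separate machine, had a median of 0.057 over 64 genes with 9 higher and 0 lower, and proteasome subunits one of 0.091 over 32 genes with 5 higher and 1 lower. All of these counts stand against 9.39% of all genes higher and 12.4% lower.

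**Figure D5:**
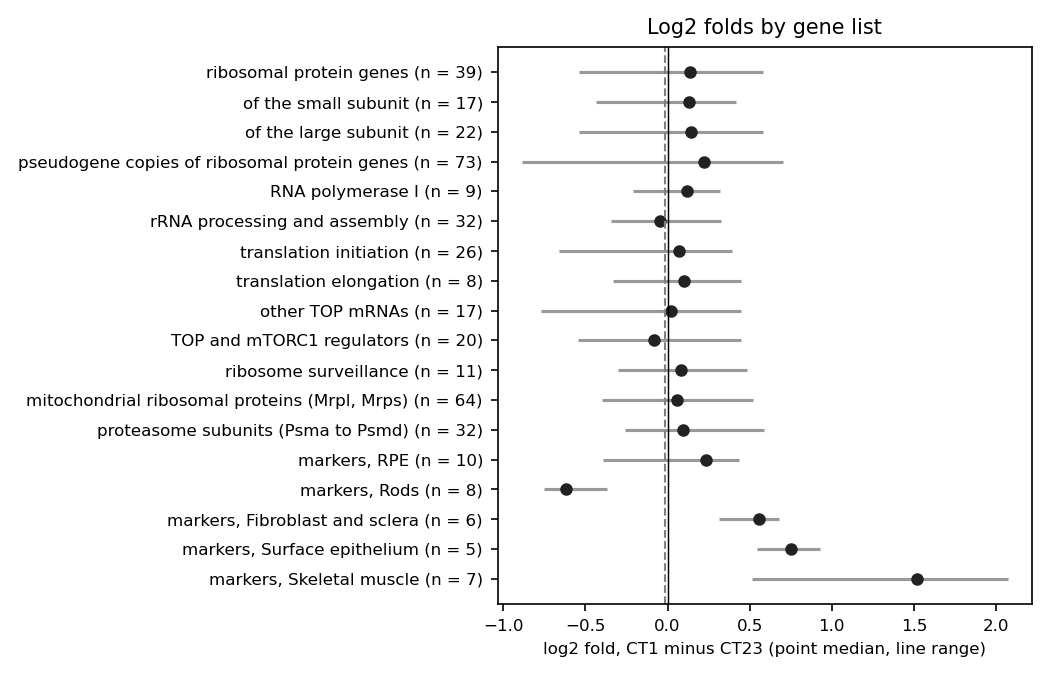
Median (point) and lowest to highest (line) log2 fold, CT1 minus CT23 (x axis), for the ribosomal protein genes, those of each subunit, the pseudogene copies and other lists (y axis, n genes tested). The dashed line marks the median of all genes, -0.014. The ribosomal medians lie at 0.13 to 0.14 and the copies at 0.22, while rod markers lie at -0.62 and surface epithelium markers at 0.75.

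Across the 6 libraries the ribosomal protein genes did not move as a single block. The Pearson correlation of a gene's log2(CPM + 1) with the log2 sum of the others, a description over 6 libraries that share depth and makeup, was above 0.8 for 15 of the 39 tested genes (38.5%, against 9.61% of all genes with the sum of all 52). It was below 0 for 9 (23.1%, against 52.1%). Rpl8 stood at 0.97, and among the 6 highest genes Rps3 stood apart at 0.061. Rpl7l1 was at -0.93, Rps15a at -0.89 and Rpl32l at -0.82. The 5 genes outside the set whose log2 levels were most like the ribosomal sum over the 6 libraries, by Pearson r and with a mean of at least 5 CPM, were Coro1c (0.999), Srek1 (0.997), Itpr2 (0.995), Zfp467 (0.995) and Bcl9l (0.994). They head a ranking of all such genes on only 6 libraries, so r values this high were picked by the ranking itself.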

How the data were processed

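RNA was measured in 6 RPE-enriched libraries, grouped by the time point in the labels. Per the file headers, the authors deposited a CPM value per library beside their log2 fold and p-value, which were used only as the authors' values. The submitters' processing notes list edgeR 3.24.1, HTSeq and Bowtie2 2.1.0 and the build mm10 without saying what each did. Within 0.01 of a read, 100% of the deposited CPM values stood for whole reads. Entries with no gene name, 75 of 14083, held 0.0432% to 0.102% of listed reads and were left out.

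Log2(CPM + 1) was fitted with limma 3.58.1 (R 4.3.3, mean-variance trend, time as the only factor) over 11342 genes (mean CPM no less than 1), two-sided, with Benjamini-Hochberg adjustment over all of them at 0.05. Values are mean ± SD, n = 3. The fit was tested on simulated data for this comparison: with 200 of 11342 genes changed 2-fold, all of them above 2 CPM, it recovered 78% to 88% of them over 5 draws, and at most 5.65% of its calls were false. Every simulated gene had a dispersion of 0.02, and the shift in crystallin reads between libraries was not simulated. Changes smaller than 2-fold were not tried. Recovered reads were tested with edgeR 4.0.16, DESeq2 1.42.0 and limma-voom. Copies were found with blastn 2.17.0. Coordinates, counted from 1, are from GENCODE M21 (mm10). The replicate numbers were not used as pairs.

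The genes and lists were chosen with earlier results of these data known. Named genes were the 6 highest, the 5 smallest p in each direction, the stalk genes, the paralogs, Rps4x, those under 1 CPM, up to 3 genes of each other list and the 5 most like the sum; Polr1a, Nemf and Cdkn1a come from lists with no gene at an unadjusted p under 0.05. Some genes that the rules name are not reported here. Copies and pairs of copies were chosen after seeing the data. Alternatives were other pseudocounts, filters, scalings, tools, the replicate block, and libraries left out.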

Additional observations from a re-analysis of the deposited data

How the results depend on the processing

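No ribosomal protein gene passed the adjusted threshold under the alternatives run, save 1, Rplp0, with values scaled to the listed genes. Genes past the threshold over the whole table, 0 as reported, were 98 (15 higher, 83 lower) with a mean of at least 5 CPM, 360 (7 higher, 353 lower) with crystallin reads out of the totals, 356 (337 higher, 19 lower) scaled to the listed genes and 138 (57 higher, 81 lower) by DESeq2, which gave no adjusted p to 5937 genes and to 24 of the 39. They numbered 0 to 4 with each library left out in turn, with 4 without CT23 replicate 3, and ribosomal protein genes past it 0 to 0. Ribosomal protein genes at an unadjusted p under 0.05, 9 as reported, were 19 scaled to the listed genes, 2 without CT23 replicates 1 and 2, 3 of 10 tested among those with at most 1 copy (9 of 39 as reported), and 5 to 11 with each library left out, with 5 without CT23 replicate 2 and 5 without CT1 replicate 3. The median log2 fold, 0.14, was -0.037 with crystallin reads out, 0.64 scaled to the listed genes (median of all genes 0.59), 0.025 without CT23 replicates 1 and 2, and 0.056 to 0.15 with each library left out, 0.056 without CT1 replicate 3. The log2 ratio of the sums, 0.19, was -0.0016 with crystallin reads out, 0.84 scaled to the listed genes and 0.11 to 0.26 with each library left out, and 0.095 without CT23 replicates 1 and 2. The cause of these shifts was not tested; the scalings by their construction move all genes together. Deviations of same-numbered libraries correlated above 0.1 for replicate 2 alone (0.38, against -0.25 and -0.042 for 1 and 3). With the replicate block, 0 genes passed, 12 ribosomal protein genes had an unadjusted p under 0.05 (8 higher, 4 lower) and the median was 0.14.

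Of 316 values of named genes under alternatives, 294 kept direction and side of the threshold and 21 reversed. With crystallin reads out, folds were -0.032 for Rplp1, -0.048 for Rpl8, -0.15 for Rps3, -0.037 for Rpl22, -0.15 for Rps27l and -0.046 for Rps4l. Scaled to the listed genes they were 0.32 for Rpl7l1, 0.24 for Rps15a and 0.29 for Rpl32l. With copies added they were 0.18 for Rpl31, 0.14 for Rpl6 and 0.10 for Rps15a. Without CT23 replicates 1 and 2 they were -0.13 for Rplp1, -0.036 for Rps9 and -0.077 for Rps4l. With each library left out Rps27l ranged from -0.096 to 0.14 and Rps4l from -0.047 to 0.15. A lone CT23 library is assumed to vary like the others. The planned restriction to genes with no near-identical genomic copy was not run, since no genome sequence was used here; annotated transcripts took its place. The 13 genes under 1 CPM were left out of the reported fit.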
